A study of Homo sapiens with 12 samples.

Results

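The miR-15 and miR-16 family comprised 9 of the 314 mature miRNAs listed for differentiated Mono Mac 6 (MM6) cells, a human monocytic cell line. Members were all listed arms of miR-15a, miR-15b, miR-16 (with miR-16-1 and miR-16-2), miR-195 and miR-497, taken by name, by a rule that uses no measured value. They were 5 arms from the 5′ side of their hairpins (5p) and 4 from the 3′ side (3p). Without LPS 9 members were among 285 mature miRNAs, and with LPS 8 were among 262, since miR-497-5p was not listed there.

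Small RNA was sequenced from wild-type cells and from cells in which CRISPR/Cas9 had knocked out ALOX5, the gene for 5-lipoxygenase (5-LO), an enzyme of leukotriene biosynthesis. All cells had received 1 ng/mL TGF-beta and 50 nM calcitriol for 72 h, and the groups with LPS then had 1 µg/mL of this bacterial endotoxin for 6 h. Each of the 4 groups (wild type, knockout, and both with LPS) had 3 libraries, but the values were the authors' mean normalized counts per group. The comparison of genotypes asks whether loss of 5-LO goes with other miRNA levels, and the libraries with LPS ask the same of stimulated cells. The labels do not say which knockout clone a library came from, and small RNA does not measure ALOX5 mRNA, so the genotype was not checked here. Calcitriol and TGF-beta were present in every group, so there was no undifferentiated control.

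A miRNA is cut from a hairpin by Drosha and then Dicer, which releases a duplex of both arms. Usually one arm, the guide, stays in Argonaute and pairs with mRNAs through its seed, bases 2 to 8, while the other, the passenger, is degraded. miR-15 and miR-16 are best known as brakes on the cell cycle and on BCL2, an inhibitor of apoptosis, and the cluster of miR-15a and miR-16-1 is often deleted in chronic lymphocytic leukemia. miR-195 and miR-497 come from a separate cluster with the same seed.

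The mature sequences of the 9 members, from RefSeq (GRCh38.p14), are shown because the seed is what joins the guides and separates them from the passengers. Each is given 5′ to 3′ with the seed in capitals.
miR-15a-5p: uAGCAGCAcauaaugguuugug
miR-15b-5p: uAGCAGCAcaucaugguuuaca
miR-16-5p: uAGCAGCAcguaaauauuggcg
miR-195-5p: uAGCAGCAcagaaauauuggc
miR-497-5p: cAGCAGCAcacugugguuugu
miR-15a-3p: cAGGCCAUauugugcugccuca
miR-15b-3p: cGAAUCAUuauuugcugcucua
miR-16-1-3p: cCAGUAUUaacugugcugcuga
miR-16-2-3p: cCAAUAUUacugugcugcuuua

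All 5 guides had the seed AGCAGCA, which 7 mature miRNAs hold in RefSeq and 6 of those listed here, the remaining one being miR-424-5p. The 4 passengers each had a different seed. Counted from 1 at the 5′ end, miR-15b-5p differed from miR-15a-5p by A12C, G20A, U21C and G22A, and miR-195-5p from miR-16-5p by G10A and U11G over 21 shared positions. The arms were 21 or 22 bases long, so their levels were compared with no correction for length.

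The hairpins, matched to GRCh37 (the hg19 build of the tables), lie in 3 clusters. MIR15A (chr13:50623255-50623337) and MIR16-1 (chr13:50623109-50623197) are on the reverse strand in the lncRNA gene DLEU2. MIR16-1 is intronic in 15 overlapping transcripts, and MIR15A is intronic in 15 and exonic in 8. MIR15B (chr3:160122376-160122473) and MIR16-2 (chr3:160122533-160122613) are on the forward strand in an intron of SMC4, a condensin gene, in all 13 of its overlapping transcripts. MIR195 (chr17:6920934-6921020) and MIR497 (chr17:6921230-6921341) are on the reverse strand in the lncRNA gene MIR497HG. The mature miR-16-5p is the same from MIR16-1 and MIR16-2, so its count does not tell the loci apart.

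The means of all entries summed to between 9680900 and 12142907 per group. Low means were whole multiples of 3 steps per group, from which the 3 size factors and the reads of each library could be recovered. The size factors were fitted on the means up to 10. All of these distinct means (128 to 136 per group) came out as whole reads in 1 way, within the rounding of 6 significant digits. Means moved off their printed values did so for 0.221% to 0.597%. For means from 10 to 20, moved values came out whole for 22.0% to 38.9%, so reads recovered there rest on weaker evidence. In that range 98.1% to 100% of the means came out in 1 way in 3 groups and 0% of 51 in LPS-treated wild-type cells, so comparisons of libraries with LPS leave those miRNAs out. The recovered libraries are called a, b and c by falling size factor and carry no replicate number. A library held exactly 1 read of an entry for 41 values and 2 reads for 346, so a recovered 0 may stand for a library with 1 read, which was not tested. The 6 myeloid markers were miR-223-3p, miR-142-3p, miR-142-5p, miR-21-5p, miR-22-3p and miR-146a-5p, and all were listed. In wild-type cells miR-21-5p alone was at 2499 of their summed 3132, and how specific they are to myeloid cells was not tested. None of the markers of red blood cells (3), lymphocytes (1), hepatocytes (1), endothelium (1) and muscle (2) was listed. One of 2 epithelial markers, miR-200c-3p, was at 1.19 in wild-type cells, 1.00 in wild-type cells with LPS and 0 in both knockout groups.

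The family was carried by miR-16-5p, its main guide. The mean of miR-16-5p was 1059.53 for the wild type and 1037.56 for the knockout, and 829.551 and 1095.07 with LPS. It ranked 15 among mature miRNAs in the first 3 of these groups and 14 in knockout cells with LPS. It made up 91.3% to 94.4% of the family's summed level in the 4 groups. That sum was 1161 for the wild type and 1123 for the knockout and 905 and 1160 with LPS, or 1.13%, 0.991%, 0.971% and 1.05% of all mature miRNA counts. The arms of miR-3607 alone held 43.4%, 35.8%, 42.0% and 38.5% of those counts, and without them the family made up 2.00%, 1.54%, 1.67% and 1.71%, with the knockout without LPS now the lowest group. Reads of miR-16-5p and miR-15b-5p were too many to recover by library, so these have no measure of spread between libraries.

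Levels with and without LPS come from tables normalized separately, so the genotypes are compared only within a table. The order of the guides was the same in every group, with miR-16-5p above miR-15b-5p, miR-15b-5p above miR-15a-5p, and miR-195-5p lowest among the 4 listed in every group. miR-15b-5p had means of 76.1 in wild-type, 48.4 in knockout, 51.9 in LPS-treated wild-type and 49.0 in LPS-treated knockout cells. Wild-type cells without LPS lay above knockout cells with no overlap of the 95% counting intervals, and the genotypes overlapped with LPS. miR-15a-5p had means of 10.4, 11.7, 11.4 and 8.89 in the same order, with intervals that overlapped between genotypes in both conditions. Its recovered wild-type libraries were at 8.80, 8.86 and 13.6 and its knockout libraries at 14.2, 12.7 and 8.28, which overlapped. With LPS its knockout libraries were at 10.8, 3.59 and 12.3, and its wild-type mean came from whole reads in 3 possible ways.

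miR-195-5p was near the detection limit. Wild-type libraries held 0, 2 and 2 reads and knockout libraries 2, 0 and 0. With LPS wild-type libraries held 2, 0 and 2 reads and knockout libraries none. The 0 reads of the last group allow a mean of up to 1.07, taking 3 reads over the group as the limit, which covers counting error only and not single reads that may be missing. miR-497-5p, from the same cluster, had 2, 2 and 0 reads in knockout cells without LPS, while the 0 reads in wild-type cells allow a mean of up to 0.972. With so few reads, a difference of either guide between genotypes was not detectable.

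**Figure D1:**
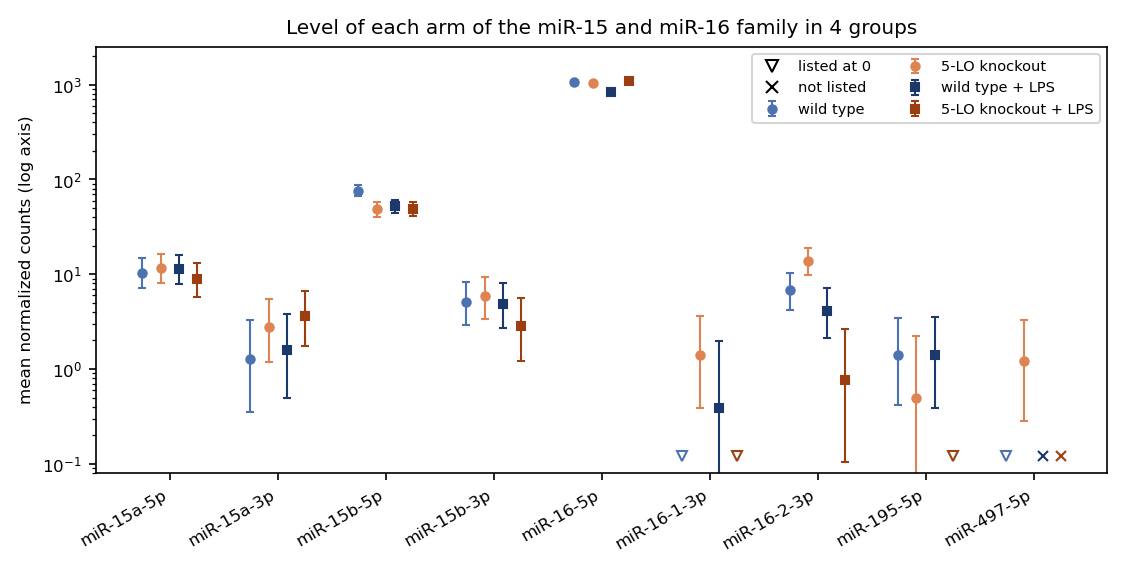
Mean normalized counts (log axis) of the 9 arms in the 4 groups, with 95% counting intervals as bars, open triangles for arms listed at 0 and crosses for arms not listed. miR-16-5p lies near 1000 in all 4 groups, miR-15b-5p is next, and the remaining arms lie below 20.

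The passenger arms were low, together 1.14% of the family's level in wild-type cells, 2.13% in knockout cells, 1.20% in wild-type cells with LPS and 0.619% in knockout cells with LPS. miR-16-2-3p, the passenger from the SMC4 intron, was the highest of them without LPS. Its recovered libraries were at 5.60, 6.89 and 7.92 in wild-type cells, from 7 reads in each, and at 12.7, 18.0 and 11.0 in knockout cells, from 17, 17 and 8 reads. All knockout libraries lay above all wild-type libraries, but the knockout mean of 13.9 is in the range from 10 to 20, where 33.3% of moved values in this group also came out as whole reads. With LPS its wild-type libraries were at 7.56, 4.66 and 0 and its knockout libraries at 2.31, 0 and 0, the latter from 3 reads in a single library.

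miR-15b-3p, the passenger of miR-15b, overlapped between genotypes in both conditions. Its wild-type libraries were at 4.0, 7.88 and 3.40 and its knockout libraries at 5.99, 7.41 and 4.14. With LPS they were at 4.07, 7.46 and 3.01 in wild-type and 2.31, 0 and 6.16 in knockout cells. miR-15a-3p held 2, 0 and 2 reads in wild-type and 4, 5 and 0 in knockout libraries, and 5, 2 and 0 against 6, 0 and 5 with LPS. Each of these 4 groups of 3 libraries thus had 1 library with a recovered 0, which may stand for 1 read. miR-16-1-3p, the passenger from DLEU2, had 2, 0 and 2 reads in knockout libraries and 2, 0 and 0 in wild-type libraries with LPS. It was at 0 in wild-type cells, which allows a mean of up to 0.972, and in knockout cells with LPS, which allows one of up to 1.07.

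**Figure D2:**
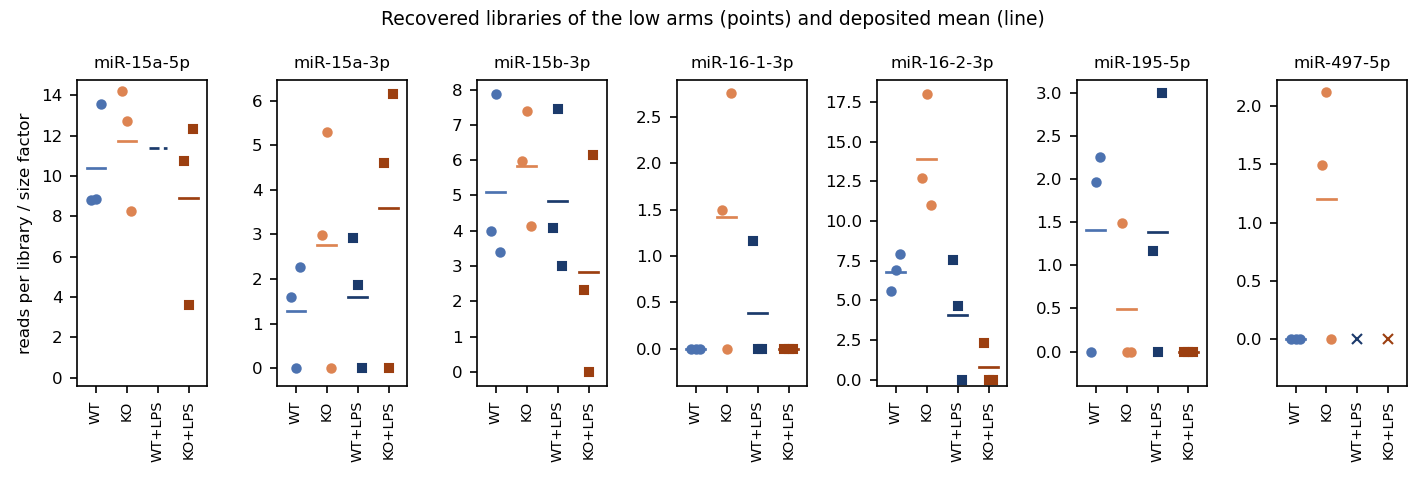
Reads of each recovered library divided by its size factor (points, linear axes that differ between panels) for the 7 low arms, with the deposited mean of the group as a line, dashed where the reads could not be recovered in 1 way, and crosses where the arm was not listed. For miR-16-2-3p the knockout libraries without LPS lie from 11.0 to 18.0, above the wild-type libraries at 5.60 to 7.92.

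For knockout against wild type, 7 members had a mean above 0 in both groups without LPS and 6 with LPS. Intervals of the ratios cover counting error only, and not single reads that may be missing. Across libraries, a two-sided exact permutation test of 3 against 3 was run where reads were recovered in 1 way, for 7 members without and 5 with LPS, and it cannot go below a p of 0.10. miR-16-2-3p without LPS reached that lowest p, and the other 11 tests gave exact p-values of 0.40 to 1. The levels of miR-16-5p and miR-15b-5p, and of miR-15a-5p with LPS, had no test across libraries. Past 1.5-fold were 4 of the 7 members without LPS, 2 higher and 2 lower, against 43.2% of the 206 mature miRNAs. With LPS 3 of the 6 members were past it, 1 higher and 2 lower, against 39.5% of 190. The members' median log2 ratio was 0.17 without LPS and -0.22 with LPS, beside 0.10 in both conditions over all these miRNAs. Without LPS the sign was not stable, since the median was -0.06 to 0.02 under the other scalings. With LPS the median stayed negative under the other scalings (-0.47 to -0.29) and with pseudocounts (-0.20 and -0.12). It was 0.16 over the 2 members with means of at least 10, and 0.40 for the 1 member at 50 or more. These shares and medians are a description, and the members were spread on both sides of no difference in each condition.

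Among the guides, the knockout to wild-type log2 ratio of miR-16-5p without LPS was -0.03 (95% counting interval -0.10 to 0.04). With LPS it was 0.40 (0.32 to 0.48), or 1.32-fold higher in knockout cells. Scaling the groups to equal sums or by the median of ratios gave -0.26 to -0.18 without LPS and 0.15 to 0.33 with LPS, so the sizes depended on the scaling and the signs did not. The values without LPS lay below the deposited interval of -0.10 to 0.04, so a reading of no difference there also depended on the scaling. The LPS ratio of miR-16-5p ranked 128 of 190 from the lowest, well inside the range of mature miRNAs. Among 62 miRNAs with means of at least 50 in both genotypes, the median with LPS was 0.25, with quartiles of -0.06 and 0.43. Without LPS the median of 69 such miRNAs was 0.23, with quartiles of -0.03 and 0.56.

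miR-15b-5p was 1.57-fold lower in knockout cells without LPS, a log2 ratio of -0.65 (-0.97 to -0.34), and it ranked 31 of 206 from the lowest. With LPS its log2 ratio was -0.08 (-0.43 to 0.26). For miR-15a-5p the log2 ratios were 0.17 (-0.57 to 0.92) and -0.36 (-1.16 to 0.43), and the first was -0.06 to 0.02 under the other scalings. With LPS it was -0.60 and -0.61 under a pair of other scalings, -0.67 without knockout library c and 0.02 without knockout library b, so both its sign and its side of 1.5-fold moved. Both intervals of miR-15a-5p thus include no difference and changes of 1.5-fold. The log2 ratio of miR-195-5p without LPS, -1.50 (-5.83 to 1.48), rested on 4 wild-type and 2 knockout reads.

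Among the passengers, miR-16-2-3p was 2.04-fold higher in knockout cells without LPS, a log2 ratio of 1.03 (0.23 to 1.87). It was 1 of 7 recovered members whose libraries did not overlap between genotypes, against 8.56% of the 187 mature miRNAs recovered in 1 way. With LPS it was 5.30-fold lower in knockout cells, a log2 ratio of -2.41 (-5.44 to -0.30), which was the second lowest of 190. All 3 knockout reads behind that value were in library a, and without it the recovered knockout mean is 0. A recovered 0 may stand for 1 read, which the interval does not cover. Across libraries the exact permutation p of this difference was 0.40, in a test that cannot go below 0.10 and so does not show whether the groups differed. With LPS 0 of the 5 recovered members had libraries that did not overlap, against 3.90% of 154 mature miRNAs. The log2 ratios of miR-15a-3p were 1.10 (-0.82 to 3.30) and 1.17 (-0.53 to 3.12), and without LPS the value was 0.22 when knockout library b was left out. Those of miR-15b-3p were 0.20 (-0.89 to 1.29) and -0.78 (-2.24 to 0.56), the first being -0.03 to 0.05 under the other scalings. Neither of these 2 passengers was set apart from no difference by its counting error.

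**Figure D3:**
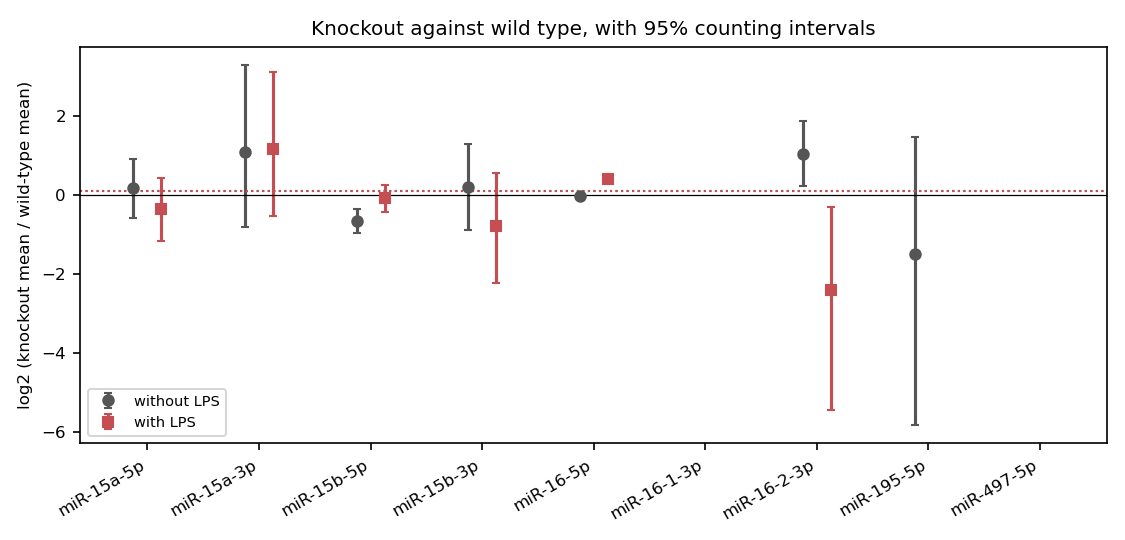
Log2 ratio of the knockout to the wild-type mean for each arm without LPS (circles) and with LPS (squares), with 95% counting intervals as bars, dotted lines at the medians of all mature miRNAs (0.10 in both conditions), and no symbol where a mean was 0 or not listed. miR-15b-5p without LPS and miR-16-2-3p with LPS lie below 0 with their whole intervals, and miR-16-2-3p without LPS and miR-16-5p with LPS lie above it. The interval of miR-16-2-3p with LPS does not cover single reads that may be missing.

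The genotype ratio differed most between the conditions for miR-16-2-3p, by -3.44 on the log2 scale (LPS minus no LPS, -5.66 to -1.22). That value rests on the 3 knockout reads with LPS in a single library, and it was -2.45 with a pseudocount of 1 and -0.90 with a pseudocount of 10. Its interval does not cover single reads that may be missing. For miR-15b-5p the difference was 0.57 (0.12 to 1.02) and for miR-16-5p 0.43 (0.33 to 0.54). Among 61 abundant miRNAs, with means of at least 50, miR-16-5p had the fourth highest such difference, beside a median of -0.08 and quartiles of -0.27 and 0.15. The differences of miR-15a-5p (-0.53, -1.55 to 0.49), miR-15a-3p (0.07, -2.27 to 2.42) and miR-15b-3p (-0.98, -2.58 to 0.62) had intervals that include 0. None of these differences was tested across libraries.

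LPS and no LPS were in separately normalized tables, so levels across them are set beside the median of all mature miRNAs, a log2 ratio of LPS to no LPS of -0.27 in both genotypes. miR-16-5p was at -0.35 in wild-type and 0.08 in knockout cells. miR-15b-5p was at -0.55 and 0.02. miR-15a-5p was at 0.13 and -0.40, and miR-16-2-3p at -0.74 and -4.18. For miR-15b-5p the 95% counting intervals, -0.85 to -0.25 in wild-type and -0.33 to 0.37 in knockout cells, both include the median. For miR-16-5p they were -0.43 to -0.28 and 0.00 to 0.15, below the median in wild-type and above it in knockout cells, with no test across libraries.

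Ratios between arms of the same group do not depend on the scaling. The ratio of miR-15a-5p to miR-15a-3p was 8.09 (95% counting interval 2.86 to 31.6) for the wild type and 4.25 (1.91 to 10.8) for the knockout, and 7.16 (2.73 to 24.3) and 2.48 (1.15 to 5.75) with LPS. The ratio of miR-15b-5p to miR-15b-3p was 14.9 (8.97 to 26.7) and 8.28 (4.95 to 14.8), and 10.7 (6.24 to 19.8) and 17.4 (8.55 to 41.2) with LPS. The ratio of miR-16-5p to miR-16-2-3p was 156 (102 to 252) and 74.6 (54.5 to 105), and 204 (117 to 393) and 1424 (411 to 10443) with LPS. The guide outnumbered its passenger in every group, most for miR-16 and least for miR-15a. The miR-16 ratio counts the guide from both of its hairpins against the passenger of 1.

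Between genotypes, the guide to passenger ratio of miR-16 differed by -1.06 on the log2 scale without LPS (-1.83 to -0.29) and by 2.81 with LPS (0.72 to 4.89), the latter again on 3 passenger reads. The interval with LPS does not cover single reads that may be missing. The ratio of miR-15a differed by -0.93 (-2.81 to 0.95) and -1.53 (-3.27 to 0.21). That of miR-15b differed by -0.85 (-1.89 to 0.19) and 0.70 (-0.60 to 1.99). Without LPS all 3 ratios were lower in knockout cells, but only the interval of miR-16 excludes 0. Leaving out knockout library b brought the miR-15a ratio without LPS from 4.25 to 7.52.

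**Figure D4:**
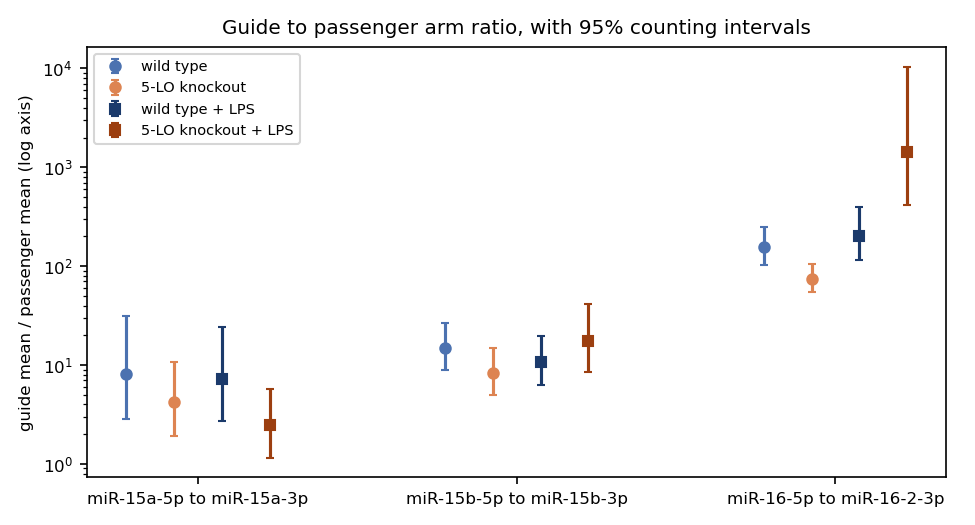
Guide to passenger ratio (log axis) of miR-15a, miR-15b and miR-16 in the 4 groups, with 95% counting intervals as bars. The miR-16 ratio runs from 74.6 in knockout cells to 1424 in knockout cells with LPS, where the interval reaches from 411 to 10443.

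Among the guides themselves, miR-16-5p stood higher against miR-15b-5p in knockout cells in both conditions. Its ratio to miR-15b-5p was 13.9 for the wild type and 21.4 for the knockout, and 16 and 22.4 with LPS. On the log2 scale these genotype differences were 0.62 (0.31 to 0.94) and 0.49 (0.15 to 0.83). The ratio of miR-16-5p to miR-15a-5p was 102 and 88.4, and 72.8 and 123 with LPS. That of miR-15b-5p to miR-15a-5p was 7.31 and 4.13, and 4.56 and 5.51 with LPS.

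The tables also list the hairpins as precursor entries, which count the reads of their arms again together with any other read on the hairpin. Values here are mean normalized counts per hairpin, not per length. The hairpins of the DLEU2 cluster are shown, arms in capitals, because most reads of one of them lay outside its annotated arms.
MIR15A: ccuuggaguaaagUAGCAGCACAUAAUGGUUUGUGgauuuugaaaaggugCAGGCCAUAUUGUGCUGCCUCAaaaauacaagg
MIR16-1: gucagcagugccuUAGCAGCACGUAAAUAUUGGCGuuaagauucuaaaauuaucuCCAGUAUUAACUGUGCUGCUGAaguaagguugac

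The precursor entry of mir-15a was at 328 in wild-type and 229 in knockout cells, and at 302 and 268 with LPS. Its arms together were at 11.7, 14.5, 13.0 and 12.5, so that 93.7% to 96.4% of the entry lay beyond the arms. Of the precursor entries at 50 or more with an arm of their own name, 7 of 54, 9 of 53, 8 of 53 and 7 of 51 in the 4 groups were at least 5-fold above their arms. The remainder of mir-15a was 316 for the wild type and 214 for the knockout, a log2 ratio of -0.56 (-0.71 to -0.42), and 289 and 255 with LPS, a log2 ratio of -0.18 (-0.32 to -0.03). The remainder and the mature guide thus had log2 ratios of opposite sign without LPS under the deposited scaling, while miR-15a-5p itself changed sign with the scaling. The interval of miR-15a-5p without LPS, -0.57 to 0.92, includes 0 and the remainder's -0.56. With LPS both ratios were below 0, at -0.18 for the remainder and -0.36 for miR-15a-5p.

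For mir-16-1 and mir-16-2, an equal share of miR-16-5p was assigned to each hairpin. With this share the mir-16-2 entry differed from the sum of its arms by -0.263% to 0.041% in the 4 groups. The mir-16-1 entry, at 849, 737, 706 and 806, exceeded its arms by 319, 217, 291 and 258. These remainders were within 0.707% to 1.39% of those of mir-15a. The hairpins of MIR15A and MIR16-1 lie 57 bases apart, with 81 bases between their facing arms, and share no run longer than 9 bases. Whether the same reads were counted under both entries cannot be told apart from separate reads in means.

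In the SMC4 cluster the remainder of mir-15b was 14.4 for the wild type and 15.4 for the knockout (log2 ratio 0.09). With LPS it was 15.1 and 6.64, a log2 ratio of -1.18 (-2.04 to -0.37). The mir-195 and mir-497 entries equalled their 5p arms. The remainders of both DLEU2 hairpins, 214 or more in each group, thus lay far above that of either SMC4 hairpin.

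**Figure D5:**
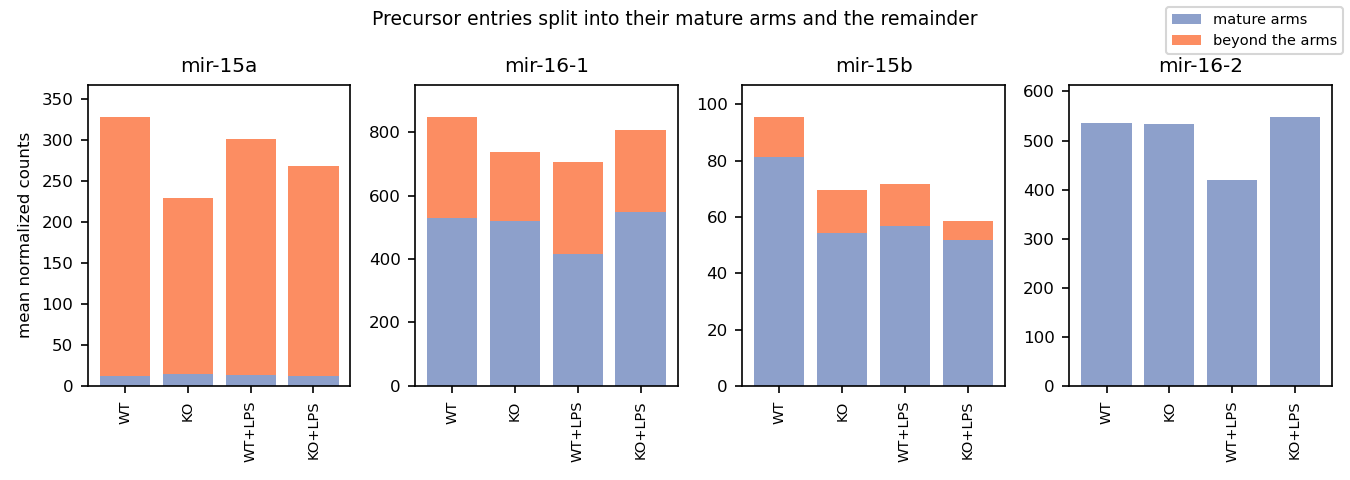
Mean normalized counts of 4 precursor entries (linear axes from 0 that differ between panels), split into their mature arms and the counts beyond the arms, with an equal share of miR-16-5p assigned to mir-16-1 and mir-16-2. The mir-15a entry lies almost wholly beyond its arms (93.7% to 96.4%), and the mir-16-2 entry has no visible remainder.

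Besides the member miR-497-5p, a list of related miRNAs held 7 names, most of which carry the stretch AGCAGC (miR-103b, antisense to miR-103a, does not). Of the 7, 4 were listed in either table, and miR-103a-3p and miR-107 reached a mean of 10. miR-103a-3p and miR-107, which act in lipid and glucose metabolism, hold the stretch (in capitals) from base 1 rather than base 2.
miR-103a-3p: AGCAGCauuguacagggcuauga
miR-107: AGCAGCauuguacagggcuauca

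miR-103a-3p was at 481 in wild-type and 433 in knockout cells, and at 386 and 258 with LPS, log2 ratios of -0.15 and -0.58. miR-107 was at 52.3 and 41.6, and at 36.9 and 24.7 with LPS, log2 ratios of -0.33 and -0.58. The ratio of miR-16-5p to miR-103a-3p was 2.20 and 2.40 without LPS, and 2.15 and 4.25 with LPS. Its genotype difference on the log2 scale was 0.12 (-0.01 to 0.25) without LPS and 0.98 (0.83 to 1.14) with LPS. miR-16-5p and miR-103a-3p thus had knockout ratios of opposite sign with LPS under each scaling tried for miR-16-5p.

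Likeness of pattern was measured as the root mean square difference of row-centred log2 means over the 4 groups, among mature miRNAs with means of at least 50. Nearest to miR-16-5p of 60 were miR-181a-5p (0.060), miR-425-5p (0.078) and miR-24-3p (0.078), while miR-103a-3p was rank 53 (0.40). Nearest to miR-15b-5p of 61 were miR-664a-5p (0.14), miR-223-3p (0.16) and miR-664a-3p (0.16). miR-16-5p was rank 21 (0.29) in that list, so the most abundant guides of the family were not each other's nearest pattern.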

How the data were processed

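The deposited signal columns hold mean normalized counts over the 3 libraries of a genotype, 1 table without and 1 with LPS, which the authors made with omiRas against hg19. For aligner and scaling, the sources used here name none. Sample groups came from the labels. The authors' log2 fold change, p-value and FDR columns were not used. The member rule uses names only, but the family, lists and rule were chosen with earlier results of these data known.

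Size factors were fitted on means up to 10, and reads were recovered from means up to 20. Intervals (95%) cover counting error only, without molecular identifiers. Recovery and intervals were tried on simulated reads drawn with counting error alone. Those reads held no spread between libraries and no missing single reads, so they cannot show how the intervals hold in these data. Where reads were recovered in 1 way, an exact permutation test compared 3 with 3 libraries, a test added after seeing the data. No count model was fitted, since reads of higher means were not recovered. Named were all listed arms of the family, their precursor entries, a list of 8 related miRNAs (1 of them a member, values from a mean of 10) and the 3 most alike to miR-16-5p and to miR-15b-5p. Alternatives were other scalings, pseudocounts of 1 and 10, minimum means of 10 and 50, and leaving out each recovered library. Sequences of the 9 arms came from RefSeq, loci from GRCh37 and GENCODE. Scripts ran in Python 3.11.15 with scipy 1.17.1, numpy 2.4.6, matplotlib 3.10.9 and pandas 2.3.3.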

Additional observations from a re-analysis of the deposited data

How the results depend on the processing

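Of 268 alternatives over 60 results, 229 left a value within its counting interval (counts within 1.5-fold, medians within 1 SD of the members), 39 did not, and none reversed a ratio whose interval lay to one side of 0. The members' median log2 ratio still crossed 0, from 0.17 to between -0.06 and 0.16 without LPS and from -0.22 to between -0.47 and 0.40 with LPS. With LPS it crossed 0 only at minimum means of 10 and 50, which left 2 members and 1 member. For miR-16-5p the log2 ratio without LPS was -0.205 at equal sums of all entries, -0.177 at equal sums of mature miRNAs and -0.259 by the median of ratios, and with LPS 0.158 and 0.150 by the last 2. Members past 1.5-fold without LPS were 0 of 7 with a pseudocount of 10 (11.2% of all mature miRNAs compared), 1 of 3 at a minimum mean of 10 (25.5%) and 0 of 1 at 50 (23.2%). With LPS they were 0 of 6 (10.5%), 0 of 2 (21.4%) and 0 of 1 (14.5%). With a pseudocount of 10 the guide to passenger ratios were 1.81, 1.70 and 1.85 for miR-15a in wild-type, knockout and LPS-treated wild-type cells. In LPS-treated knockout cells the miR-15a ratio was 1.39, which stayed within its counting interval. In the 4 groups the ratios were 5.71, 3.69, 4.17 and 4.60 for miR-15b, and 63.6, 43.8, 59.6 and 103 for miR-16. Leaving out a library moved the log2 ratio of miR-16-2-3p to between 0.80 and 1.17 without LPS and -2.99 and -1.60 with LPS. There it gave -1.60 without wild-type library a, -1.82 without knockout library b or c and -2.99 without wild-type library c, and no ratio without knockout library a. Without LPS, miR-15a-3p gave 0.52 without wild-type library b and 0.22 without knockout library b, and 1.79 and 1.69 without wild-type and knockout library c. With LPS it gave 0.54 without knockout library c, 1.76 without knockout library b and 1.94 without wild-type library a. With LPS, miR-15b-3p gave -0.33 without wild-type library b, -0.20 without knockout library b and -2.07 without knockout library c. With LPS, miR-15a-5p gave 0.02 without knockout library b and -0.67 without knockout library c. No paired analysis was possible because the columns are means and carry no replicate number. Depth limits the passengers, miR-195-5p and miR-497-5p, whose libraries held 0 to 17 reads.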
